A study of Homo sapiens with 6 samples.

Results

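The genes described here encode the proteasome, its activators and inhibitor, and the chaperones that build it. Members were all genes of the count table whose symbol is PSMA, PSMB, PSMC, PSMD, PSME, PSMF or PSMG followed by a number, without the interferon-inducible subunits PSMB8 and PSMB9. The rule found 46 of 38167 genes: 17 of the core particle (PSMA and PSMB), 20 of the cap (PSMC and PSMD), 5 activators and inhibitors (PSME and PSMF) and 4 assembly chaperones (PSMG). RNA sequencing had been done on spheroids of Cal27, an established human line from a squamous carcinoma of the tongue. They were grown by the liquid overlay technique in soft Matrigel (3 mg/mL) or stiff Matrigel (12 mg/mL) and harvested on day 14, with 3 libraries a condition and no other treatment or genetic change named. The question behind the comparison is whether a denser gel changes the cells' transcripts. A denser gel is stiffer and also offers more ligand, which cannot be told apart here, and all spheroids came from 1 cell line. The libraries are called biological replicates, but no label ties them to separate cultures, so each p-value rests on library spread alone, which may be technical.

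The proteasome is the main protease for proteins tagged with ubiquitin. Its core is a barrel of stacked rings: alpha subunits form the outer gates, and beta subunits form the inner chamber, where PSMB5, PSMB6 and PSMB7 cut. The cap binds ubiquitin chains, removes them and threads the unfolded protein into the barrel with a ring of ATPases. Interferon swaps the cutting subunits for PSMB8, PSMB9 and PSMB10 and adds the PSME1 and PSME2 activator, forms known for making peptides for antigen presentation. Cells short of proteasome activity raise its genes together through the transcription factor NFE2L1.

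The libraries held 30656278 to 40583044 counted fragments. Levels below are CPM, counts scaled to a common library size by the TMM method, unless TPM (scaled also by gene length) is named. All 10 squamous epithelial markers had a mean of at least 1 TPM, with a summed level of 12958 to 14232 TPM in soft and 44848 to 47362 TPM in stiff. Of the markers of other cells, 6 for fibroblasts summed to 16.8 to 20.5 TPM in soft and 39.6 to 44.2 TPM in stiff, and 6 for leukocytes to 37.7 to 39.0 TPM and 23.3 to 28.7 TPM, nearly all of it CD14. The 4 endothelial markers summed to at most 0.9 TPM in soft and 1.8 TPM in stiff. Of the 4 fibroblast markers tested, 2 were higher in stiff and 0 lower. LUM had means of 3.7 TPM in soft and 25.6 TPM in stiff (edgeR adjusted p = 6.15e-06), and COL1A1 13.8 and 14.7 TPM (0.0432). The markers PTPRC, COL3A1, PECAM1 and KDR were listed at 0 TPM in all 6 libraries. The part of other cells in the results was not tested. Stiff replicate 2 stood apart from the other stiff libraries on the second principal component (-25.9 against 15.9 and 13.8), which held 10.2% of the variance. Many members sit higher in it than in the other stiff libraries.

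Proteasome transcripts changed little between soft and stiff Matrigel, and not all in the same direction. Of the 44 members tested, 4 were higher in stiff, 11 were lower and 29 did not pass an adjusted p of 0.05 in edgeR's quasi-likelihood test, which was fitted and adjusted over 18676 genes. That is 34.1% of the tested members, where 49.1% of all tested genes passed (25.3% higher and 23.8% lower). This order turned around without stiff replicate 2. In that fit 61.4% of the members passed (4 higher and 23 lower), against 55.7% of all tested genes (28.2% higher and 27.4% lower). The median size of the log2 fold change was 0.16 among the members and 0.35 among all tested genes, and 0 of 44 members differed at least 2-fold, against 13.9% of all tested genes. Soft and stiff libraries were fully separated for 7 members that were higher and 11 that were lower, where 59.9% of all tested genes were separated (30.3% higher and 29.6% lower). DESeq2 called 5 members higher and 10 lower, where it called 40.3% of all genes it tested (20.6% higher and 19.7% lower). Higher calls made up 26.7% of the member calls, 16.7% (3 of 18) when scaled by library size only and 5.6% (1 of 18) with limma on log2(TPM + 1). Over all genes those shares were 51.5%, 44.7% and 41.3%. In bulk RNA, fewer cells of a type and less RNA per cell cannot be told apart.

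By group, the core had 1 member higher and 2 lower of 15 tested (median log2 fold change -0.01), and the cap 1 higher and 6 lower of 20 (median -0.13). The cap gene that was higher was PSMD9, a chaperone of base assembly that leaves the finished particle. The activators and inhibitor had 3 lower and 0 higher of 5 (median -0.23), and the core assembly chaperones 2 higher and 0 lower of 4 (median 0.28). Of all tested genes 49.1% were called, 25.3% higher and 23.8% lower, and the counts of these small groups were not tested against those shares. The median over all tested genes was 0.00, and no test compared the groups with each other. Without stiff replicate 2 the medians were -0.15 in the core, -0.19 in the cap, -0.21 in the activators and inhibitor and 0.21 in the assembly chaperones, and with the length trend removed the core median was -0.09. With limma on log2(TPM + 0.1), that all-gene median moved to -0.11 and the medians of cap, activators and assembly to -0.24, -0.35 and 0.15. The PSMB11 and PSMA8 genes, core subunits of the thymus and the testis, had 0 to 2 and 0 to 1 fragments per library and were not tested.

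**Figure D1:**
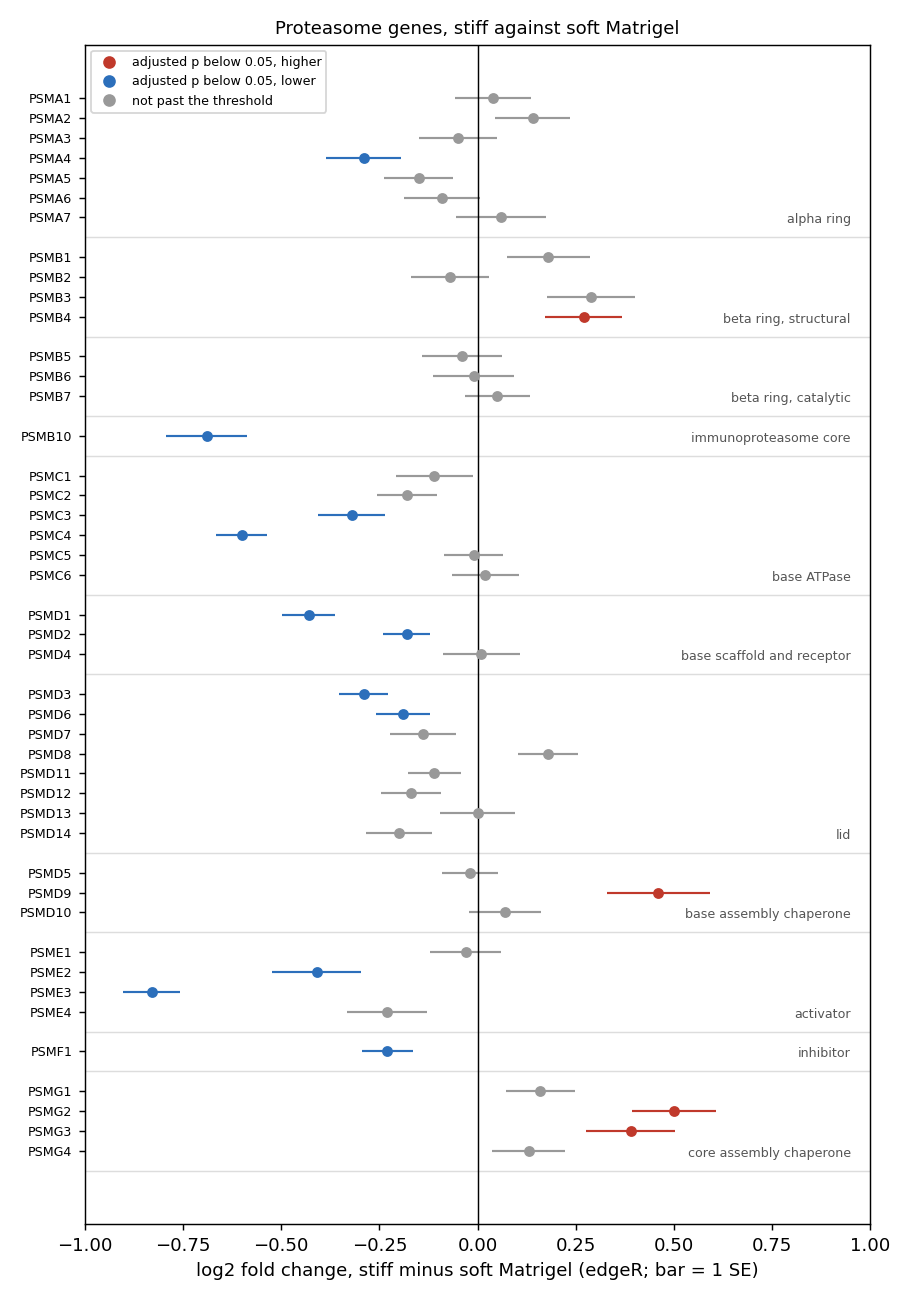
Log2 fold change (stiff minus soft, x axis) of the 44 tested members, grouped by role, with bars of 1 standard error from edgeR; red and blue mark members past an adjusted p of 0.05. PSME3, PSMB10 and PSMC4 lie farthest to the left (-0.83, -0.69 and -0.60), PSMG2 and PSMD9 farthest to the right (0.50 and 0.46), and the catalytic subunits PSMB5, PSMB6 and PSMB7 lie within 0.05 of 0.

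In the alpha ring, 1 of 7 subunits passed, and the median log2 fold change was -0.05. The 7 subunits had means of 82.8 to 181 CPM in soft and 80.2 to 192 CPM in stiff, and the one that passed was PSMA4. PSMA4 (Entrez 5685, chromosome 15, 78540405 to 78552417) was at 168, 187 and 173 CPM in the soft libraries and at 127, 165 and 139 CPM in the stiff libraries. All 3 stiff values lay below the lowest soft value, although stiff replicate 2 came close to it. PSMA4 fell 1.23-fold (log2 fold change -0.29, SE 0.096, edgeR adjusted p = 0.028). The call was lost without any of the libraries soft replicate 1, 2 or 3 or stiff replicate 1 or 3 (adjusted p = 0.0512, 0.106, 0.0665, 0.103 and 0.0847), and was lost with the length trend removed (0.0905). Over all alternatives the adjusted p ran from 1.17e-05 to 0.106. The other alpha subunits had log2 fold changes of -0.15 (PSMA5) to 0.14 (PSMA2), and their soft and stiff values overlapped. Without stiff replicate 2, PSMA3, PSMA5 and PSMA6 passed as lower beside PSMA4, and the median of the ring was -0.16. With the length trend removed, 0 of the 7 passed.

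Within the beta ring, the soft and stiff values of the cutting subunits overlapped, and none of these subunits passed. PSMB5, which cuts after hydrophobic residues and is the main target of bortezomib, was at 88.8, 94.9 and 90.4 CPM in soft and at 81.3, 105 and 80.5 CPM in stiff (edgeR adjusted p = 0.763). PSMB6, which cuts after acidic residues, was at 90.2, 93.3 and 87.5 CPM in soft and at 80.6, 106 and 82.1 CPM in stiff (adjusted p = 0.935). PSMB7, which cuts after basic residues, was at 194, 213 and 197 CPM in soft and at 189, 230 and 207 CPM in stiff (adjusted p = 0.627). In PSMB5 and PSMB6, stiff replicate 2 was above every soft library and the other stiff libraries were below every soft library. Without it both passed as lower, PSMB5 with a log2 fold change of -0.18 (adjusted p = 0.0101) and PSMB6 with -0.15 (adjusted p = 0.0238), where the alternatives spanned 0.0101 to 0.919 for PSMB5 and 0.0238 to 0.975 for PSMB6. Both also passed as lower with the length trend removed (0.0274 and 0.0451).

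Among the structural beta subunits, PSMB4 was the member that passed. It was at 137, 147 and 142 CPM in soft and at 156, 200 and 157 CPM in stiff, with no overlap. It rose 1.2-fold (log2 fold change 0.27, SE 0.098, edgeR adjusted p = 0.0441). Without stiff replicate 2 the log2 fold change was 0.14, and the call was kept (adjusted p = 0.0287). The call was lost without soft replicate 1, 2 or 3 (adjusted p = 0.146, 0.091 and 0.119), with the length trend removed (0.0891, and 0.0614 with a replicate block as well), with scaling by library size only (0.0948) and with limma on log2(TPM + 1) (0.128), within a range of 0.00835 to 0.189 over the alternatives. PSMB3 did not overlap either, at 86.4, 93.1 and 86.4 CPM in soft and 95.2, 130 and 98.6 CPM in stiff, but missed the threshold (edgeR adjusted p = 0.0573, and 0.00812 to 0.258 over the alternatives). PSMB1 and PSMB2 had log2 fold changes of 0.18 and -0.07 and overlapped.

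PSMB10, the interferon-inducible counterpart of PSMB7, fell furthest in the core. The gene (Entrez 5699, chromosome 16, 67934506 to 67936850) was at 107, 119 and 115 CPM in soft and at 62.5, 82.5 and 66.3 CPM in stiff. Every stiff library was below every soft library, with stiff replicate 2 the highest of the stiff libraries. PSMB10 fell 1.61-fold (log2 fold change -0.69, SE 0.103, edgeR adjusted p = 0.000394), a call kept under all 19 alternatives run at the same threshold (adjusted p 2.4e-11 to 0.00342). The ratio of PSMB10 to PSMB7 in TPM was 0.554, 0.561 and 0.588 in soft and 0.334, 0.362 and 0.322 in stiff. Its spread was narrow in both conditions (0.568 ± 0.0181 and 0.339 ± 0.0205, SD, n = 3), and the stiff mean was 0.598 of the soft mean. The size of a TPM ratio between genes, here and below, depends on the gene lengths behind the TPM. Only its change between conditions is read.

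The other interferon-inducible cutting subunits were read on the same scale. PSMB8 was at 130, 141 and 134 CPM in soft and at 105, 138 and 104 CPM in stiff, and PSMB9 at 83.4, 97.3 and 94.8 CPM and at 77.4, 103 and 78.5 CPM. Neither passed (edgeR adjusted p = 0.117 and 0.522). PSMB8 passed as lower under several alternatives, among them the removal of the length trend (0.00542), limma on log2(TPM + 1) (0.0165), no count filter (0.0335) and the omission of stiff replicate 2 (1.42e-05), within 1.42e-05 to 0.335 over all of them. PSMB9 passed as lower without stiff replicate 2 (0.00418) and with the length trend removed together with a replicate block (0.0166), within 0.00418 to 0.911. The transcript PSMB8-AS1 covers 20.6% of PSMB8's exons on the opposite strand, and the strand setting of the counting is not given in the sources used here, so PSMB8 is uncertain. The ratio of PSMB8 to PSMB5 in TPM was 1.88 ± 0.0199 in soft and 1.66 ± 0.0212 in stiff (SD, n = 3), with no overlap, and that of PSMB9 to PSMB6 was 1.67 ± 0.135 and 1.57 ± 0.00928, with overlap.

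**Figure D2:**
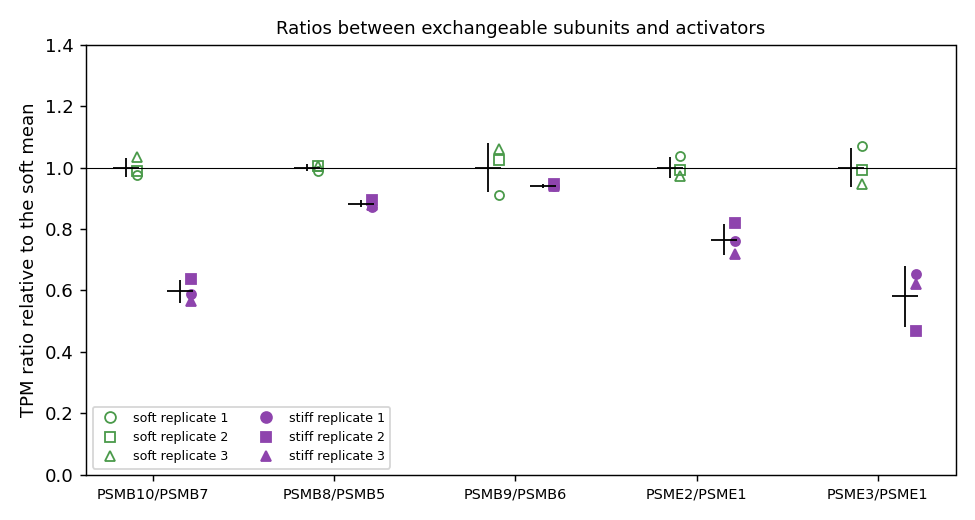
Ratios of TPM between interferon-inducible and constitutive cutting subunits and between activator subunits, in each library (points), relative to the mean of the soft libraries (y axis), with mean and SD (n = 3) as black bars. Stiff libraries lie near 0.598 of the soft mean for PSMB10/PSMB7 and 0.883 for PSMB8/PSMB5, below all soft libraries, while PSMB9/PSMB6 overlaps.

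PSME1 and PSME2, which form a ring that opens the core and lie close together on chromosome 14 (4403 bases apart), differed in their calls. PSME1 was at 233, 261 and 252 CPM in soft and at 226, 278 and 229 CPM in stiff (edgeR adjusted p = 0.819). With the length trend removed, PSME1 passed as lower (log2 fold change -0.17, adjusted p = 0.0257, and 0.0156 to 0.984 over the alternatives). PSME2 (Entrez 5721, 24143365 to 24146610) was at 114, 122 and 115 CPM in soft and at 80.6, 107 and 77.4 CPM in stiff, all stiff values below the soft ones. It fell 1.33-fold (log2 fold change -0.41, SE 0.113, adjusted p = 0.0134). The adjusted p was 0.0514 without soft replicate 2 and 0.0506 without stiff replicate 3, and 7.14e-08 to 0.0514 over all alternatives. The ratio of PSME2 to PSME1 in TPM was 1.12, 1.07 and 1.05 in soft and 0.821, 0.886 and 0.775 in stiff, with no overlap. In CPM, PSME2 was below PSME1 in both conditions, so which of these genes is higher depends on the lengths behind the TPM.

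PSME3 fell further than any other tested member. It encodes a nuclear activator that forms a ring of its own and is not part of the interferon response. The gene (Entrez 10197, chromosome 17, 42833397 to 42843760) was at 134, 138 and 127 CPM in soft and at 78.6, 69.3 and 76.0 CPM in stiff. The conditions were far apart and stiff replicate 2 was the lowest library. PSME3 fell 1.78-fold (log2 fold change -0.83, SE 0.073, edgeR adjusted p = 1.18e-05, and 5.26e-22 to 0.00269 over the alternatives). The ratio of PSME3 to PSME1 in TPM was 0.138, 0.128 and 0.122 in soft and 0.0843, 0.0605 and 0.0803 in stiff, without overlap.

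PSME4, a nuclear activator that binds the core as a single chain, was at 109, 94.6 and 105 CPM in soft and at 95.1, 73.9 and 93.3 CPM in stiff (edgeR adjusted p = 0.0844). PSMF1, which encodes a protein known for inhibiting the core in the test tube, was at 137, 141 and 135 CPM in soft and at 114, 115 and 124 CPM in stiff. Its values did not overlap and it fell 1.17-fold (log2 fold change -0.23, SE 0.065, adjusted p = 0.015). The call was lost without soft replicate 1 or 2 or stiff replicate 1 (adjusted p = 0.0519, 0.0629 and 0.0611, within 0.00272 to 0.0629 over the alternatives).

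The stretches upstream of the genes are shown because PSMB10 and PSME2 belong to the interferon response. IRF1, an interferon regulatory factor, was at 184, 192 and 186 CPM in soft and at 98.2, 115 and 98.4 CPM in stiff (1.8-fold lower, edgeR adjusted p = 1.63e-05). It was on a list of 12 genes of antigen presentation and interferon signalling, PSMB8 and PSMB9 included. Of these, 1 was higher, 7 lower and 4 did not pass: 66.7% were called, where 49.1% of all tested genes were. TAP2, TAPBPL and ERAP1 were 2.04-fold, 2-fold and 1.33-fold lower (edgeR adjusted p = 2.81e-06, 3.76e-06 and 0.000684). VAMP1 covers 10.6% of TAPBPL's exons on the opposite strand. TAPBP was higher (edgeR adjusted p = 0.00235, lost in the limma fits). The core letters of the interferon-stimulated response element, GAAA, NN and GAAA without a break on either strand, were searched in the 250 bases before the gene start in RefSeq (GRCh38.p14), for which 40 of the 46 members had an entry. They were found in 5 of 40 members (12.5%) and in 839 of 27305 genes (3.07%). Of the 11 members that fell, 3 held a match. PSMB10, PSME2 and PSMG4 carry the same GAAAGCGAAA, letters singled out after the matches were seen, which 24 of the 27305 genes hold (0.0879%). The sequences run 5′ to 3′ on the strand of the gene, with the match in capitals and, for PSMB10, the whole 250 bases.
PSMB10, chr16:67936851-67937100, minus strand: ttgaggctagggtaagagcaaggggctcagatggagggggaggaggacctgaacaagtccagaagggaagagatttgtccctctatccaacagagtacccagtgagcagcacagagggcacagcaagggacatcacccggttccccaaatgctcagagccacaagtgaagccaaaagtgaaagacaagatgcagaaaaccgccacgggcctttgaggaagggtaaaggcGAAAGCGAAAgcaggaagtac
PSME2, chr14:24146614-24146653, minus strand: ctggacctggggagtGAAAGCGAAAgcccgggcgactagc
PSMG4, chr6:3258899-3258938, plus strand: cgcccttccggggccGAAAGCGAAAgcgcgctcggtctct
PSMB4, chr1:151399490-151399529, plus strand: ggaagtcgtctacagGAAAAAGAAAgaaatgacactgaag
PSMA4, chr15:78540155-78540189, plus strand: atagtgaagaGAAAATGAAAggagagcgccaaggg
Members with these letters went both ways: PSMB10, PSME2 and PSMA4 fell, PSMB4 rose, and PSMG4 did not pass (adjusted p = 0.283). The match starts 21 bases before the gene start in PSMB10 and 28 bases before it in PSME2. A match is a description of the sequence and no record of binding.

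The ring of 6 ATPases at the base of the cap held some of the larger falls. PSMC4 (Entrez 5704, chromosome 19, 39971165 to 39981764) was at 95.8, 96.5 and 90.7 CPM in soft and at 61.2, 62.6 and 63.3 CPM in stiff. Its libraries were tight in both conditions, stiff replicate 2 included. PSMC4 fell 1.51-fold (log2 fold change -0.60, SE 0.065, edgeR adjusted p = 4.91e-05, and 1.01e-13 to 0.0017 over the alternatives). PSMC3 was at 129, 123 and 113 CPM in soft and at 88.8, 107 and 97.7 CPM in stiff and fell 1.24-fold (adjusted p = 0.0113, and 0.0599 without soft replicate 1, the highest over the alternatives, whose lowest was 3.87e-05). The other ATPases did not pass, with log2 fold changes of -0.18 (PSMC2), -0.11 (PSMC1), -0.01 (PSMC5) and 0.02 (PSMC6). PSMC2 passed as lower with the length trend removed and without stiff replicate 2 (edgeR adjusted p = 0.00404 and 0.00106, within 0.00106 to 0.216 over the alternatives). Without stiff replicate 2, 4 of the 6 ATPases passed as lower, and their median log2 fold change was -0.22. NRDE2 covers 75.8% of PSMC1's exons and FTSJ3 covers 19.5% of PSMC5's on the opposite strand, which leaves both uncertain.

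Beside the ATPases, the base holds the scaffolds PSMD1 and PSMD2, which dock ubiquitin receptors and shuttle proteins, and the ubiquitin receptor PSMD4. PSMD1 was at 123, 122 and 116 CPM in soft and at 86.2, 93.9 and 87.7 CPM in stiff. Its values did not overlap and it fell 1.35-fold (log2 fold change -0.43, SE 0.067, edgeR adjusted p = 0.00052), with HTR2B covering 10.8% of its exons on the opposite strand. PSMD2, the member with the most fragments, was at 323, 324 and 314 CPM in soft and at 285, 285 and 276 CPM in stiff. It fell 1.13-fold (adjusted p = 0.0291), a call lost without any of the libraries soft replicate 1, 2 or 3 or stiff replicate 1 or 3 (adjusted p = 0.095, 0.0952, 0.0555, 0.0727 and 0.106, within 0.0038 to 0.106 over the alternatives). PSMD4 had means of 117 ± 5.49 CPM and 118 ± 17.3 CPM (SD, n = 3).

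In the lid, which cuts ubiquitin chains off the substrate, 2 of 8 subunits passed, both lower, and the median log2 fold change was -0.15. Without stiff replicate 2, 6 of the 8 passed as lower, and the median was -0.21. PSMD7 (edgeR adjusted p = 0.198) passed as lower in that fit (0.00202) and with the length trend removed (0.00589), within 0.00202 to 0.523 over the alternatives. PSMD3 was at 139, 143 and 143 CPM in soft and at 118, 117 and 112 CPM in stiff, with a narrow spread in each condition. It fell 1.22-fold (log2 fold change -0.29, SE 0.062, edgeR adjusted p = 0.00338). PSMD6 was at 42.8, 41.7 and 41.4 CPM in soft and at 37.4, 37.2 and 35.7 CPM in stiff (1.14-fold lower, adjusted p = 0.0408). PSMD6 was chosen for mention after its values were seen, and its call was kept under 10 of 19 alternatives (adjusted p 0.0105 to 0.459), with any library but stiff replicate 2 left out among those that ended it. PSMD14, the deubiquitinase of the lid, was at 78.1, 89.9 and 75.2 CPM in soft and at 67.2, 75.3 and 69.2 CPM in stiff, touching the soft range (adjusted p = 0.074, and 0.00411 without stiff replicate 2, within 0.00411 to 0.316 over the alternatives). PSMD8 was higher in every stiff library, 110 to 128 CPM against 101 to 109 CPM, without passing (edgeR adjusted p = 0.0754).

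**Figure D3:**
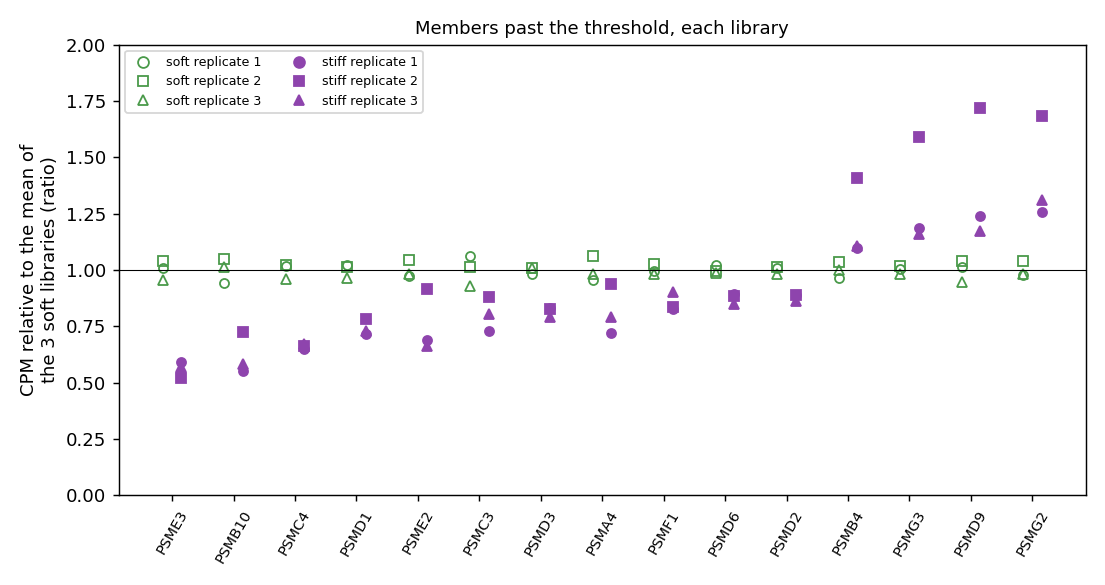
CPM of the 15 members past the threshold in each library, as a ratio to the mean of the soft libraries (y axis), ordered by fold change; green open symbols are soft and purple filled symbols stiff. Stiff replicate 2 (squares) is the highest stiff library in each of the 4 members that rose and the lowest in PSME3. It is also the highest in PSMB10, PSME2, PSMA4, PSMC3 and PSMD1 and, by a margin lost in rounding, in PSMD2.

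Chaperones that build the particle were the members that rose most. PSMG1 and PSMG2 pair to start the alpha ring, and PSMG3 and PSMG4 pair to support it. PSMG2 (Entrez 56984, chromosome 18, 12658738 to 12725740) was at 49.7, 53.0 and 50 CPM in soft and at 63.9, 85.7 and 66.6 CPM in stiff. Every stiff library exceeded every soft library, and PSMG2 rose 1.42-fold (log2 fold change 0.50, SE 0.108, edgeR adjusted p = 0.00334, and 3e-06 to 0.0232 over the alternatives). CEP76 covers 13.9% of its exons on the opposite strand, which leaves it uncertain.

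PSMG3 was at 58.5, 59.2 and 57.2 CPM in soft and at 69.1, 92.7 and 67.7 CPM in stiff. It rose 1.31-fold (log2 fold change 0.39, SE 0.113, edgeR adjusted p = 0.0161). The log2 fold change was 0.23 without stiff replicate 2 and 0.25 with the length trend removed, and the call was lost without soft replicate 1, 2 or 3 (0.055, 0.0501 and 0.0654) and with limma on log2(TPM + 1) (0.0595), within 0.000312 to 0.0984 over the alternatives. The partners of these genes did not pass. PSMG1 was at 25.7, 28.3 and 28.5 CPM in soft and at 30.1, 33.5 and 28.5 CPM in stiff (adjusted p = 0.159), its lowest stiff library only just above its highest soft library. PSMG4 was at 18.0, 20.8 and 20.3 CPM in soft and at 21.9, 19.9 and 22.7 CPM in stiff (adjusted p = 0.283, and 0.0102 to 0.923 over the alternatives, passing as higher with the length trend removed), and SLC22A23 covers 13.3% of its exons on the opposite strand.

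PSMD9, PSMD10 and PSMD5 are named as cap subunits but leave the finished particle: they escort the ATPases while the base is built. PSMD9 was at 39.8, 40.9 and 37.3 CPM in soft and at 48.7, 67.6 and 46.2 CPM in stiff, without overlap. It rose 1.38-fold (log2 fold change 0.46, SE 0.131, edgeR adjusted p = 0.015). The log2 fold change was 0.27 without stiff replicate 2, and the call was lost without soft replicate 3 (0.0682) and with limma on log2(TPM + 1) (0.0637), within 5.13e-05 to 0.107 over the alternatives. PSMD10 and PSMD5 had log2 fold changes of 0.07 and -0.02. POMP, the chaperone that completes the core and lies outside the naming pattern, was at 76.4, 81.1 and 72.9 CPM in soft and at 73.1, 93.5 and 72.9 CPM in stiff (adjusted p = 0.672). Summed over the 4 PSMG genes, the level was 152, 161 and 156 CPM in soft and 185, 232 and 186 CPM in stiff, while the 17 core genes summed to 1931, 2107 and 1951 CPM and to 1814, 2318 and 1850 CPM.

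Among 11 regulators of proteasome gene transcription, 5 were higher and 2 lower, against 25.3% and 23.8% of all tested genes. NFE2L1 was at 751, 717 and 733 CPM in soft and at 581, 446 and 579 CPM in stiff (1.37-fold lower, edgeR adjusted p = 0.00366). NGLY1, which processes the NFE2L1 protein, was 1.32-fold higher (adjusted p = 0.00415, and 0.000117 to 0.0612 over the alternatives, with the call lost in the limma fits). NFE2L2, its relative in the response to oxidants, was at 206, 211 and 213 CPM in soft and at 196, 218 and 188 CPM in stiff (adjusted p = 0.467, and 0.0372 without stiff replicate 2, within 0.0258 to 0.864 over the alternatives). Of the forkhead factors on the list, FOXO3 was 1.31-fold higher (adjusted p = 0.00286, and 6.69e-06 to 0.191 over the alternatives, with the call lost in the limma fits) and FOXO4 1.37-fold lower (adjusted p = 0.00638).

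The core letters bound by NFE2L1 and NFE2L2 with small MAF proteins, TGACNNNGC on either strand, are shown for the called members that hold them. They were found in the 250 bases before the start of 10 of 40 members (25%) and of 3013 of 27305 genes (11.0%). Matches lay in 2 of the 3 members that rose and had an entry, in 2 of the 11 that fell and in 6 of the 24 that did not pass. The match is in capitals, with 15 bases on each side, and PSMD9 holds 2.
PSMD9, chr12:121888626-121888664, plus strand: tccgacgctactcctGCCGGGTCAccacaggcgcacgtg
PSMD9, chr12:121888673-121888711, plus strand: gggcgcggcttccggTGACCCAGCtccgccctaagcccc
PSMG2, chr18:12658684-12658722, plus strand: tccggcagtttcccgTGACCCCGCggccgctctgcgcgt
PSMD3, chr17:39980755-39980793, plus strand: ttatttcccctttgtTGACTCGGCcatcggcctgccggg
PSME2, chr14:24146762-24146800, minus strand: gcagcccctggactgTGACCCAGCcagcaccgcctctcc
The first PSMD9 match reads on the opposite strand, and the others on the strand of the gene. Members with these letters moved in either direction, PSMD9 and PSMG2 higher and PSMD3 and PSME2 lower. The CCAAT box, bound by NF-Y, was found in 17 of 40 members (42.5%) and 33.0% of all genes, in 0 of the 3 that rose and 4 of the 11 that fell. No match of one of the motifs overlapped a match of another.

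The genes around the particle were also mixed. Of 15 partners outside the naming pattern, 3 were higher, 2 lower and 10 did not pass: 33.3% were called, where 49.1% of all tested genes were. SEM1, the smallest lid subunit, was at 57.6, 57.4 and 53.9 CPM in soft and at 68.5, 94.7 and 69.5 CPM in stiff (1.38-fold higher, edgeR adjusted p = 0.00871). Its log2 fold change of 0.46 was 0.29 without stiff replicate 2, and it missed the threshold in the unfiltered limma fit to log2(TPM + 1) (0.0786, within 1.91e-05 to 0.0786 over the alternatives). PAAF1, another chaperone of the ATPases, was 1.27-fold higher (adjusted p = 0.0103, and 0.0543 without soft replicate 3, within 0.000123 to 0.19 over the alternatives). PITHD1 was 1.32-fold higher (edgeR adjusted p = 0.00377). The thioredoxin-like cap partner TXNL1 was 1.27-fold lower (adjusted p = 0.00414, and 0.000298 to 0.116 over the alternatives, with the call lost when the length trend was removed).

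RPS27A, which encodes ubiquitin fused to a ribosomal protein, and the ubiquitin-activating enzyme UBA6 each had a log2 fold change of 0.32 (edgeR adjusted p = 0.029 and 0.0101). The RPS27A call was lost without soft replicate 1, 2 or 3 (0.105, 0.0587 and 0.0972) and the UBA6 call without soft replicate 2 (0.058). Over the alternatives the adjusted p ran from 0.00184 to 0.139 for RPS27A and from 1.87e-05 to 0.275 for UBA6, and both calls were lost in the limma fits. Without stiff replicate 2 the log2 fold change of RPS27A was 0.18.

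Of 14 shuttle and p97 genes, 2 were higher and 4 lower: 42.9% were called, against 49.1% of all tested genes. SQSTM1, the autophagy receptor that also binds ubiquitin chains, was at 556, 558 and 517 CPM in soft and at 334, 367 and 332 CPM in stiff (1.58-fold lower, edgeR adjusted p = 4.25e-05), with 20.7% of its exons covered by another gene. The p97 adaptors FAF2 and UFD1 were 1.34-fold and 1.28-fold lower (edgeR adjusted p = 0.00101 and 0.00392), and with the length trend removed UFD1 missed the threshold (0.052, within 1.92e-05 to 0.052 over the alternatives). The shuttle UBQLN2 was 1.3-fold higher (adjusted p = 0.00222, and 2.53e-06 to 0.131 over the alternatives, with the call lost in the limma fits). In complexes built along similar lines, 1 of 10 COP9 signalosome genes was higher and 2 were lower (30.0% called, median log2 fold change -0.02). Of 8 genes of the chaperonin CCT, a folding chamber, 0 were higher and 4 lower (50% called, median -0.21). The median of the proteasome members was -0.04. Without stiff replicate 2 the medians were -0.14 for the members, -0.13 for COP9 and -0.29 for CCT, and no difference between the complexes was tested.

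Levels within the core spread differently by scale. The 14 constitutive core genes ranged from 82.8 CPM (PSMA3) to 201 CPM (PSMB7) in soft, a 2.43-fold range of fragment counts. In the deposited TPM they ranged from 33.1 (PSMA4) to 876 (PSMB7), a 26.5-fold range, and the gene lengths that link the CPM to the TPM differ 25.6-fold between PSMB1 and PSMA4. With merged exon lengths of GENCODE 29 instead, a choice made after seeing the data, the range per exon base was 5.85-fold and the SD among the 14 subunits 0.85 on the log2 scale, against 1.70 in TPM. Subunits that enter the particle in equal number thus have no settled order of levels here. In a ratio of conditions within a gene, the length used for scaling cancels. The counts of stiff replicate 2 themselves varied with gene length, as given below, and so the ratios are not free of length.

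**Figure D4:**
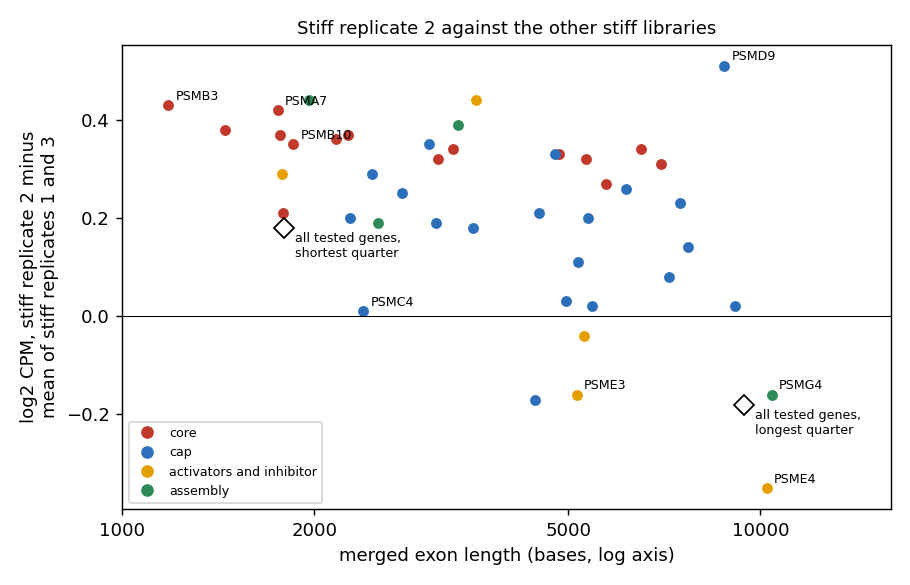
Log2 CPM of stiff replicate 2 minus the mean of stiff replicates 1 and 3 (y axis) against merged exon length (x axis, log scale) for the 44 tested members, coloured by group. Open diamonds give the medians of the shortest and the longest of 4 equal groups of the tested genes with a known length (0.18 and -0.18). All 15 core genes lie above 0, while PSME4, PSMD5, PSME3, the PSMG4 gene and PSMF1 lie below.

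Stiff replicate 2 was the highest stiff library for 36 of the 44 tested members (81.8%), for 15 of 15 core genes and 16 of 20 cap genes, where it was the highest for 42.9% of tested genes with a known length. The median member was 0.26 higher there on the log2 scale than in stiff replicates 1 and 3, and the median core gene 0.34. Over the tested genes with a known length, split into 4 equal groups by exon length, this difference was 0.18 in the shortest group and -0.18 in the longest. Across the members it correlated with the logarithm of length at r = -0.50 (rho = -0.48, 44 genes that share the same libraries). The core genes had a median length of 2256 exon bases and the 15803 tested genes with a known length 4547. The part of length in the members' differences was tested only through the alternative in which each library's trend on length was removed: 4 members were then higher and 14 lower, where 52.4% of all tested genes passed (26.7% higher and 25.6% lower). Without stiff replicate 2, 4 members were higher and 23 lower of 44, where 55.7% of all tested genes passed (28.2% higher and 27.4% lower). With soft replicate 1, 2 or 3 left out, 6, 6 and 8 members were lower and 2, 2 and 1 higher, and with stiff replicate 1 or 3 left out 7 were lower and 5 higher in each case. Over all genes those 5 fits called 3746, 3930, 3995, 4373 and 4377 genes higher and 3410, 3676, 3714, 4097 and 4062 lower, where the fit to all 6 libraries called 4722 and 4449. All 15 members called with 6 libraries were among the 27 called without stiff replicate 2. The 12 added calls were all lower: PSMA3, PSMA5, PSMA6, PSMB2, PSMB5 and PSMB6 of the core and PSMC1, PSMC2, PSMD7, PSMD11, PSMD12 and PSMD14 of the cap. By group, the calls without that library were 1 higher and 8 lower in the core, 1 and 12 in the cap, 0 and 3 in the activators and inhibitor, and 2 and 0 in the assembly chaperones.

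**Figure D5:**
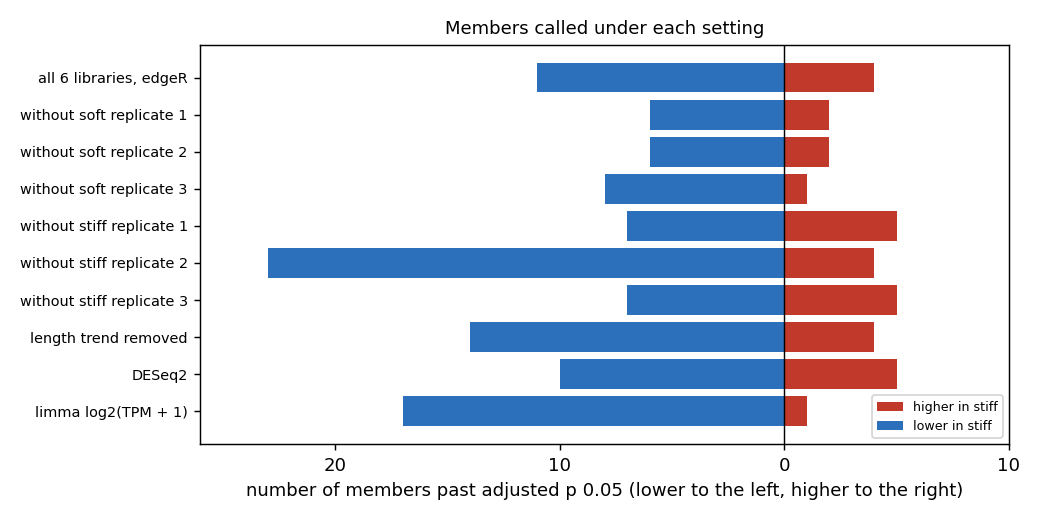
Number of members past an adjusted p of 0.05 (x axis), lower in stiff to the left and higher to the right, with all libraries, with each library left out, and under other settings. Lower calls number 11 with all libraries, 6 to 8 without any other single library, and 23 without stiff replicate 2.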

How the data were processed

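The authors deposited fragment counts per gene symbol, not normalized, for 6 libraries, and TPM values (abundance per gene length, scaled to a fixed total) rounded to 1 decimal. Per the submitters' processing notes, the tools were featureCounts 1.6.2, STAR 2.6.1e, FastQC 0.11.7, Trim Galore 0.4.2 and cutadapt 1.9.1, with build hg38 and no role stated for any of them. Annotation, strandedness and the handling of multiply aligned reads were not given in the sources used here. GENCODE 29 names 32 pseudogenes after 12 members, so reads shared with them are uncertain, and a gene is given as uncertain where another gene covers 10% or more of its exons.

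Stiff was compared with soft by edgeR 4.0.16 (quasi-likelihood, TMM, default filter, no covariate) in R 4.3.3, with Benjamini-Hochberg adjustment over all 18676 tested genes and a threshold of 0.05. The SE is the log2 fold change divided by the root of the F statistic. On counts simulated for this comparison (18676 genes, a small part of them changed), edgeR recovered 24% of the 1.25-fold changes. It recovered 54% of the 1.5-fold and 74% of the 2-fold ones, and 2.4% of its calls were false. In the data 49.1% of all tested genes passed, so recovery there may differ from these figures. Libraries of a condition differed by more than sampling noise in every pair (chi-square over its degrees of freedom 3.26 to 30.75). The alternatives used DESeq2 1.42.0, limma 3.58.1 on log2 TPM, other scalings and filters, a stricter threshold of 0.01, a lowess trend on exon length (span 0.3, with lengths for 84.6% of tested genes), each library left out in turn, and a block for the replicate number. Members named in full were, in each subgroup, up to 2 with the highest and 2 with the lowest fold change past the threshold and a mean of at least 5 CPM, the cutting subunits, PSMB10, PSME1, PSME2, PSMF1, PSMD14 and all PSMG genes, and, in other lists, up to 4 genes with the smallest p, with NFE2L1, NFE2L2, POMP, PSMB8, PSMB9 and IRF1 always named. The members and lists were chosen with earlier results of these data known. Some genes of the ubiquitin list are not reported here.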

Additional observations from a re-analysis of the deposited data

How the results depend on the processing

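Of the 15 members called, PSMB10, PSMC4, PSMD1, PSMD3, PSME3 and PSMG2 kept their direction and call under all 19 alternatives at the 0.05 threshold. With limma on log2(TPM + 0.1), log2(TPM + 1) without a filter and log2(TPM + 1), 2831, 3138 and 2880 genes of all were higher and 3972, 4109 and 4088 lower. With these 3, 1 member was higher and 17 lower, the cap median was -0.24, the assembly median 0.15 and the activator median -0.35, -0.34 and -0.34. With scaling by library size only the activator median was -0.29. At an adjusted p below 0.01, 1 member was higher and 5 lower. With each library left out, 1 to 5 members were higher and 6 to 23 lower, the activator median was -0.29 to -0.21, and the SD of log2 TPM among core genes in stiff was 1.82 to 1.83. On CPM over GENCODE exon length, added after seeing the data, that SD was 0.85 in soft and 0.95 in stiff. The fold changes of members and partners near 0 turned sign in the fits that follow. POMP (0.06) was at -0.10 with the length trend removed, with and without the replicate block, -0.00 by library size, -0.06 in the 3 limma fits, and -0.07 to 0.12 with each library left out. PSMB7 (0.05) was at -0.09, -0.09, -0.00, -0.06 and -0.02 to 0.12 in those fits. With each library left out, PSMB5 (-0.04) ranged from -0.18 to 0.03, PSMB6 (-0.01) from -0.15 to 0.06 and PSME1 (-0.03) from -0.13 to 0.03, each lowest without stiff replicate 2. Causes were not tested.

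The labels share replicate numbers between conditions without saying what a number marks. Deviations from the condition means correlated at 0.134, 0.319 and 0.095 for numbers 1, 2 and 3. Unlike numbers correlated at -0.26 to 0.129, and pairs of number 2 with another number at -0.26 to -0.153. The main fit did not pair the libraries because the labels name no pairing. Whether a number marks a shared batch was not tested. With the replicate block, 6 members were higher and 14 lower, and 5167 and 5039 of all genes. At 3 libraries a condition, changes of the size seen among members could be missed. The simulated counts, in which few genes were changed, do not measure how many.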
